A study of Drosophila melanogaster and Drosophila ananassae and Drosophila pseudoobscura with 52 samples.

Results

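Male and female editing levels of D.ana (Drosophila ananassae) were compared site by site. Of the 2380 exonic A-to-I editing sites listed for the genus, the 356 with a level in both the male and the female column of D.ana were taken. All of them are described here, and 175 were edited at 2% or more in at least 1 sex. The flies were adults 5 days old of the stock 14024-0371.13, with no transgene or treatment, and each library pooled whole bodies of several flies. There were 4 libraries of each sex, 2 by mmPCR-seq (microfluidic multiplex PCR of cDNA at chosen loci, then sequencing) with primers made for D.mel, and 2 by a second round of targeted sequencing with primers made for D.ana. The other 5 species compared below are D.mel, D.sim, D.yak, D.pse and D.vir, sampled in the same way with 1 stock each, and the second round was also run in D.pse and D.vir.

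A-to-I editing is the deamination of adenosine to inosine within double-stranded RNA by ADAR, and inosine is read as guanosine by the ribosome and by reverse transcriptase. Drosophila has a single Adar gene, whose product acts mostly in neurons, where many transcripts for ion channels and synaptic proteins are edited. Neighboring adenosines of the same duplex are often edited together, which makes clusters of sites. The editing level is the share of reads with G at the site, so a level from a whole body is an average over all tissues that make the transcript. Male and female bodies differ in their organs, above all the gonads, and a change of the level within the same cells cannot be told apart from a change in which cells supply the transcript.

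Each level is 1 averaged value per sex. All D.ana levels in both sexes (100%) were multiples of 0.05 percentage points, the step that an average of 2 values recorded to 0.1 points would give. Single replicates and read counts are not in the tables used here, so the depth behind a level is unknown beyond the minimum of 50 reads, no site has an error of its own, and no site was tested. Differences are male minus female in percentage points (points). A difference of more than 10 points was counted, the limit on replicate differences that the study used in part of its analyses. Positions are those of the D.mel genome, build dm3 by the submitters' processing notes. The sites were not assigned to genes here, since the annotation used is for another build and the study's own annotation of the sites was not used, so they are named by chromosome and position.

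Primers are shown because a pair bounds the stretch of transcript that it amplifies. Those of the 5 sites with the largest differences in either direction come from the study's primer list, in lower case and 5′ to 3′, with no part in capitals. The pairs for the X sites at 11864589 and 6002745 were made for D.mel, and the other 3 pairs were made for D.ana. Further pairs were listed within 200 bp of X position 6002745. Which pair or round gave a level is not stated, so a printed pair need not be the source of the value.
X 11864589 forward: gaatgcccaagaactaacagc
X 11864589 reverse: cttgggaccctcggtca
X 6002745 forward: atggctttcctcacattgtttc
X 6002745 reverse: tttcatcagtacagccacgac
X 10941783 forward: tgatctctacgagctggtcat
X 10941783 reverse: ggaaggcgctcggatataac
3R 6071146 forward: gagaggcagctgtacaagaa
3R 6071146 reverse: tctccaatgttctgggtgtac
3R 16844310 forward: tgcaagtgcgagcatatctata
3R 16844310 reverse: cagtcaaagtggagcagaacc
The pair for 3R 6071146 was listed for that position, and the large difference was at the next base, 6071147.

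Across the 356 sites, male and female levels were close, with a Spearman's rho of 0.933 and a Pearson's r of 0.967 across sites. The sites share libraries, and neighbors share transcripts, so these values describe the table and are given without a p-value. The median difference over all 356 sites was 0.15 points, and 222 sites differed by at most 1 point. Males were higher at 213 sites, females at 116, and 27 sites were equal. Males were higher by more than 10 points at 17 sites (4.78% of all sites compared) and females at 7 (1.97%), so that 6.74% of the sites passed the limit in either direction.

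Among the 175 sites at 2% or more in at least 1 sex, the median level was 17.45% in males and 14.05% in females. Their median difference was 1.85 points, and the middle range from the first to the third quartile ran from -0.08 to 5.28 points. Males were higher at 127 of these sites (72.6%), females at 45 (25.7%), and 3 were equal. Most of these differences were small, 117 sites lying within 5 points. The 181 sites under 2% in both sexes had a median difference of 0 points, with 86 sites higher in males, 71 higher in females and 24 equal.

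**Figure D1:**
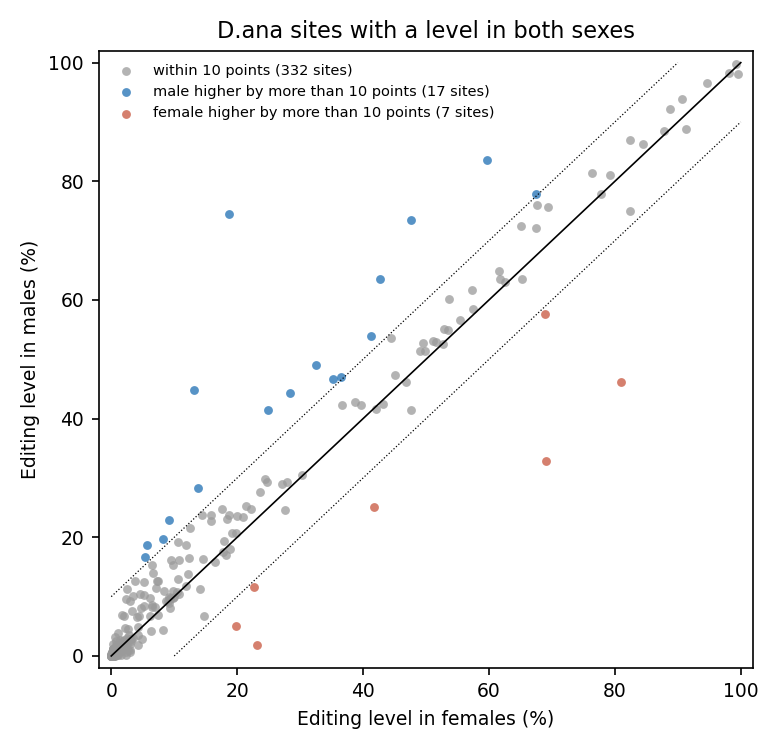
Editing level in males (y axis, %) against females (x axis, %) at the 356 D.ana sites, 1 point per site, with the diagonal and dotted lines 10 points on either side. Most points lie close to the diagonal, 17 sites (blue) lie above the upper dotted line and 7 (red) below the lower one.

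Editing as such was mostly shared by the sexes. At 157 sites the level was 2% or more in both sexes, and at 169 it was at most 1.5% in both. Only 6 sites were at 2% or more in males and at most 1.5% in females, and 6 were the reverse. All 12 were low, the highest being 3.95% in males against 1.05% in females at 2R position 2620715 and 3% in females against 0.65% in males at 3R position 16148105. At 3L position 4586718 the level was also 3% in females, against 1.05% in males. A level of 0 in both sexes was listed at 5 sites.

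The sites were next grouped by the mean of both sexes. Of the 190 sites with a mean under 2%, none passed 10 points in either direction, and their median difference was 0 points. The 55 sites from 2 to 10% had a median of 0.75 points, with 37 sites higher in males and 16 higher in females, and none of them passed 10 points. The 52 sites from 10 to 30% had the largest median, 3.95 points, with 40 higher in males and 12 higher in females. With the bands set by the D.mel level instead, the median from 10 to 30% was 0.35 points over 53 sites. Those sites include ones under 2% in both D.ana sexes, such as 2L position 13188408 (0.25% in males, 0.65% in females), so the sets differ. From 30 to 60%, the median over 32 sites was 2.3 points, and the share past 10 points was the largest of the bands, 31.2%. The 27 sites at 60% or more had a median of 1.85 points, 21 of them being higher in males. Every site past the limit had a mean of at least 10%, where 111 sites were measured and 21.6% of them passed. A mean under 2% leaves no room for a difference of 10 points. From 2 to 10% only the higher means leave that room, and the largest male excess there was 8.9 points. The bands therefore do not have the same room for a difference.

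**Figure D2:**
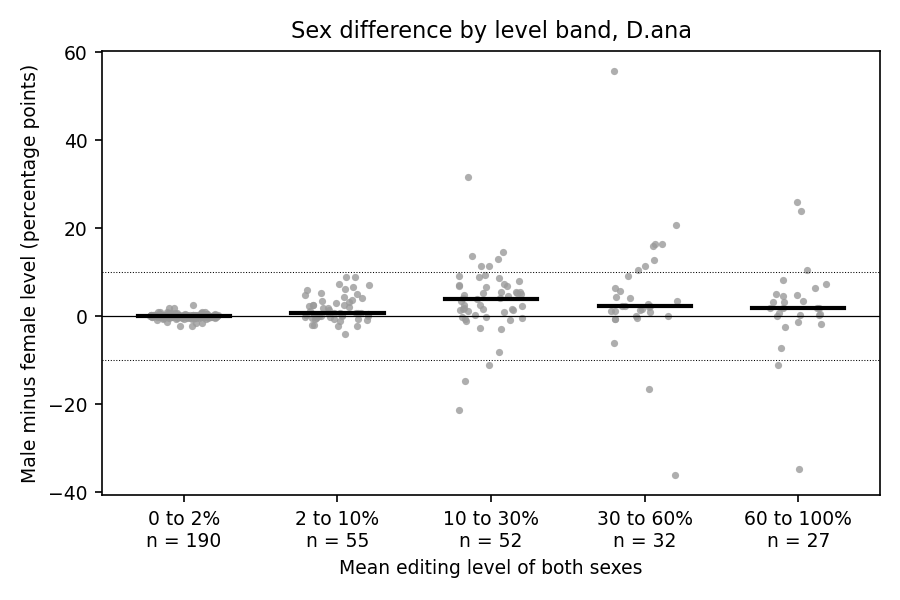
Male minus female level (y axis, percentage points) of each D.ana site in 5 bands of the mean level of both sexes, with the band median as a black bar and dotted lines at 10 points in either direction. The medians are 0, 0.75, 3.95, 2.3 and 1.85 points from the lowest to the highest band, and the points beyond the dotted lines lie in the upper 3 bands.

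The largest excess in males was at X position 11864589. It was edited at 74.45% in males and 18.7% in females, a difference of 55.75 points or 3.98-fold. No other site within 300 bp had a level in both sexes, so no neighbor could be set beside it. In D.mel the same site was at 48.65% in males and 36.75% in females, a smaller gap in the same direction. D.sim males were at 61.6% and D.yak females at 45.45%, with no level for the other sex, so the female level was lower in D.ana than in both species with one.

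A similar contrast was seen at X position 10941783, with 44.8% in males and 13.2% in females. This site was edited in D.ana but was at most 1.15% in either sex of D.sim, D.pse and D.vir. It had close neighbors at low levels, of which the one 53 bp away was at 2.1% in males and 0.35% in females. The one 3 bp away was at 0% in males and 0.1% in females.

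On 3R, a locus with several sites carried a pair of large male excesses. Position 16844310 was at 73.5% in males and 47.55% in females, and position 16844415, 105 bp away, was at 83.55% and 59.75%. Between them, position 16844318 was at 19.2% in males and 10.55% in females. The remaining sites of the locus differed little, most of them at low levels with little room for a difference. At position 16844414, 1 bp from the higher site, the levels were 2.5% in males and 3.2% in females, and at 16844526 they were 9.95% in both sexes.

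Other male-higher sites had moderate levels. Position 17203191 on 2R was at 63.5% in males and 42.75% in females, while its neighbors 1 and 10 bp away were at 2.5% and 2.7% in males and at 1.7% and 1.95% in females. Position 411895 on 2L was at 41.4% and 24.9%, and position 16852418 on 3R at 49% and 32.6%. Position 3018497 on 3R was at 44.3% and 28.4%.

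Some lower sites had a larger ratio of the sexes than these moderate ones. The X sites at 11864589 (3.98-fold) and 10941783 (3.39-fold) had larger ratios still. A low site passes 10 points only with a large ratio, so the limit itself favors such ratios at lower levels. Position 20137053 on 3R was at 28.25% in males and 13.7% in females (2.06-fold), position 9775061 on 2R at 22.85% and 9.1% (2.51-fold), and position 7230012 on 2L at 18.65% and 5.7% (3.27-fold). Position 17824766 on the X, at 53.95% and 41.2%, closes the 12 sites with the largest male excess. Over the 17 sites past the limit, male levels ran from 16.65% to 83.55% with a median of 46.75%, and female levels from 5.3% to 67.45% with a median of 28.4%. The 2 sites just inside the limit were 3L position 2925255 (10.4 points) and 3R position 4662651 (10.45 points), and the 2 just outside were 2R position 11151551 (9.35 points) and 3R position 4662648 (9.2 points).

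Females were higher by more than 10 points at 7 sites. The largest excess was at 3R position 6071147, with 32.9% in males and 69.05% in females. Both neighbors that were measured went the same way: position 6071146, 1 bp away, was at 6.75% in males and 14.8% in females, and position 6071158, 11 bp away, was at 5% and 19.85%. This was the only D.ana group of 3 edited sites, each within 50 bp of the next, that was higher in females throughout. With a wider gap allowed, X positions 14893901, 14893953 and 14893971 were also all higher in females, with differences of -2.45, -0.1 and -0.2 points.

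The next site, X position 6002745, was at 46.25% in males and 81.05% in females. Its neighbors within 80 bp were at low levels of 0.4% to 1.95% in males and 0.5% to 2.9% in females, and the closest, 17 bp away, was at 0.9% and 0.8%. Such low levels leave no room for a difference in points, so whether the difference was limited to this site cannot be seen.

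At X position 14168301 the level was 1.8% in males and 23.1% in females, 12.8-fold higher in females and the largest ratio among the named sites. Position 3701368 on 2R was at 25.15% in males and 41.75% in females, and position 14180896 on 3R at 11.7% and 22.7%. Neither had a neighbor with both levels within 50 bp, but for the 3R site 2 sites with a male level alone lay 20 and 24 bp away, at 39.55% and 21.7%.

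On 3L, position 2941312 was at 57.7% in males and 68.85% in females, the smallest proportional gap of the 7. In the same stretch, position 2941426 was at 75% and 82.35%, whereas position 2941132 was at 52.65% in both sexes and position 2941425 at 42.45% and 43.2%. Below the limit, X position 17844090 was at 41.5% and 47.65%, 2R position 4771260 at 4.3% and 8.25%, and X position 16369671 at 24.6% and 27.55%. The first site outside the limit was 3R position 6071146 (-8.05 points), and the last inside was 3R position 14180896 (-11 points).

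**Figure D3:**
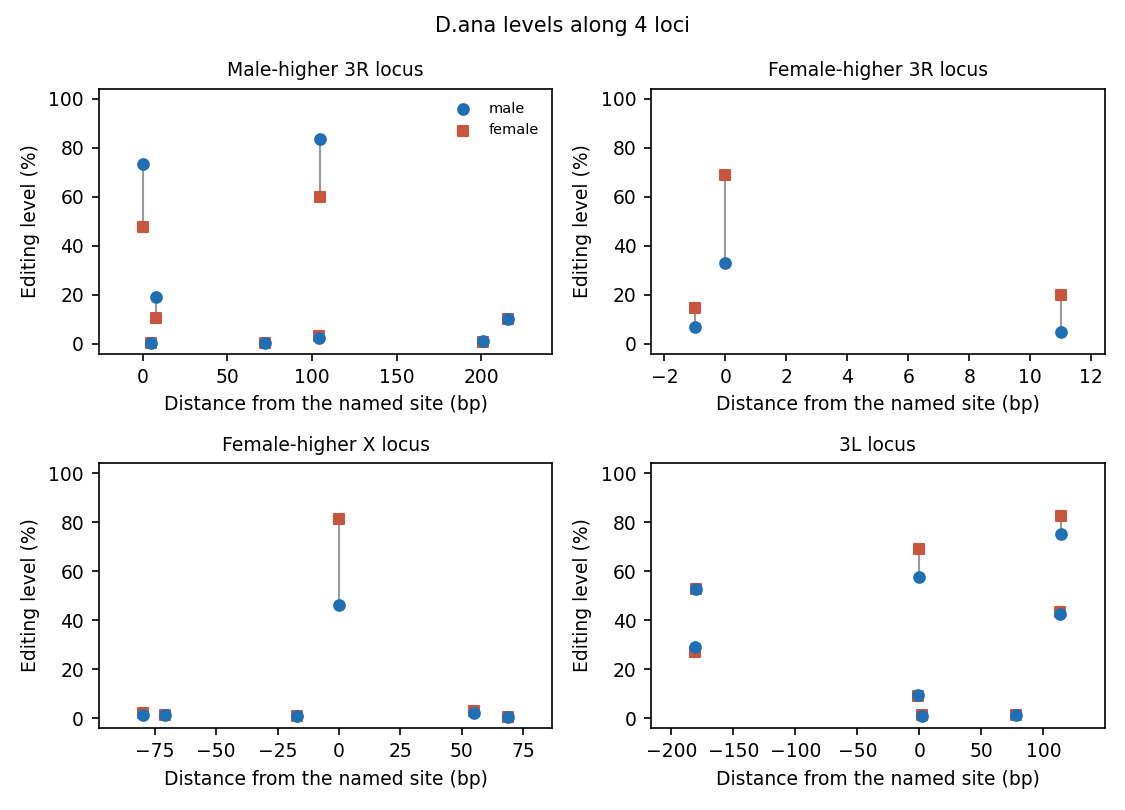
Male (blue circles) and female (red squares) editing levels (y axis, %) of every D.ana site measured in both sexes within 300 bp of 4 named sites, against the distance from the named site in bp (x axis). At the female-higher 3R locus all 3 sites are higher in females, while the male-higher 3R locus and the 3L locus also hold sites with almost equal levels, and the neighbors at the X locus are all at or under 2.9%.

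The most highly edited sites were alike in the sexes. Leaving out those with a mean of 99% or more, the highest was 3R position 191107, with 98.15% in males and 99.5% in females. On 2L, position 16174138 was at 98.3% and 98.15%, position 9717614 at 96.6% and 94.7%, position 16174153 at 93.85% and 90.6%, and position 9733349 at 92.15% and 88.7%. A level near 100% leaves no room for an excess in the other sex, and the DNA of the stock was not analysed here, so a G in the genome was not separated from editing.

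Sites were chained into clusters where neighbors with a level in both sexes lay within 50 bp. There were 83 clusters holding 219 sites, namely 49 of 2 sites, 21 of 3, 8 of 4, 4 of 5 and 1 of 6, and 137 sites had no neighbor. Edited sites with a neighbor had a median difference of 1.45 points (107 sites, 69.2% higher in males), and those without one had 2.48 points (68 sites, 77.9% higher in males). The 17 male-higher sites included 8 with a neighbor, and no cluster held more than 1 of them.

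In 33 clusters, at least 2 members were edited. All edited members were higher in males in 17 clusters, all were higher in females in 4, and the members went different ways in 11. In the other cluster, 1 member was higher in males and 1 was equal. Taken as pairs of adjacent edited sites in the same cluster, 33 of 49 pairs went the same way, 27 of them with males higher, and 15 went opposite ways. The differences of a pair lay a median of 2.35 points apart. With 72.6% of edited sites higher in males, many pairs have the same direction by that share alone, so the count is read against it and not as a property of clusters.

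The clusters with the most sites had small differences. The cluster of 6 sites, on 3L from 4369422 to 4369460, had differences from -0.35 to 0.6 points at male levels of 0.95% to 41.65%. On 2L from 2785605 to 2785658, 5 sites differed by -0.55 to 2.3 points, and on 3L from 4586714 to 4586720, 5 sites differed by -1.95 to 4.5 points. The 5 sites on 2R from 8336282 to 8336339 differed by -0.1 to 5.05 points, and the 5 on 3R from 3829168 to 3829208 by -0.5 to 3.45 points. The sixth place was shared by the 8 clusters of 4 sites, whose mean differences ran from -0.68 to 4.54 points, 5 being positive and 3 negative. One of these, on the X from 16365262 to 16365352, was higher in males at all 4 sites by 2.3 to 5.7 points, at male levels of 42.35% to 72.1%.

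Some pairs of neighbors were higher in males at both sites. On 3R, positions 4662648 and 4662651 were at 53.65% and 46.95% in males and at 44.45% and 36.5% in females. On 2R, the pair from 19287273 to 19287318 was 6.25 to 7.25 points higher in males, the pair from 11151541 to 11151551 was 7.15 to 9.35 points higher, and the adjacent pair at 5771665 and 5771666 was 4.2 to 6.7 points higher. These pairs were picked for that direction after their values were seen and stand as examples.

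By chromosome in D.mel coordinates, the edited sites on 2L were higher in males at 26 of 29, with a median of 2.3 points. Males were higher at 33 of 42 sites on 2R (median 1.8 points), at 28 of 43 on 3R (2.25 points) and at 17 of 28 on 3L (0.55 points). On the X, males were higher at 21 of 31 sites with a median of 1.8 points, against 1.85 points over the 144 edited autosomal sites. The X held the largest male excess, 4 of the 17 male-higher sites and 2 of the 7 female-higher sites. Of its 31 edited sites, 12.9% were past 10 points with males higher and 6.45% with females higher. The shares at edited autosomal sites were 9.03% and 3.47%.

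The rounds of sequencing used different primers, and the columns do not say which round gave a level. Of the 356 sites, 203 lay within 200 bp of one of the 192 loci with D.ana primers. At edited sites near these loci the median difference was 2.5 points (81 sites, 79% higher in males), and at the other edited sites 1.25 points (94 sites, 67% higher in males). The share past 10 points was 14.8% near D.ana primers and 12.8% elsewhere. The part of the primers in these values was not tested.

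A level in 1 sex alone was listed at 77 further D.ana sites, 37 in males and 40 in females. The male-only sites had a median level of 40.85%, and 31 of them were at 10% or more. The female-only sites had a median of 5.55%, and 16 were at 10% or more. Some of these sites were next to measured ones: 18 male-only and 12 female-only sites lay within 50 bp of a site with both levels. An example is X position 17824691, at 79.6% in females with no male level, 7 bp from position 17824684 with 23.75% in males and 18.75% in females. Whether the study's limit on replicate differences was applied to the columns used here is not stated. The 356 compared sites are therefore not a random draw of the D.ana sites, and a sex difference at a site lacking 1 level cannot be seen.

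For the size of the spread between libraries, the 16 male libraries of 8 inbred D.mel lines (DGRP) are the closest measure, since they are listed singly. Among the sites of the D.ana comparison, taking for each line those with a mean of 10% or more in its own libraries (113 to 127 sites), the libraries of a line differed by more than 10 points at 3.45% to 28.3% of sites, with a median of 6.87% over the lines. Line 774 gave the highest share, and the next was 13.4%. Both columns of line 721, which gave the lowest share, carry the same sample mark and may be repeats of 1 sample. Without that line, the shares ran from 4.2% to 28.3% with a median of 8.77%. The D.ana sexes passed 10 points at 21.6% of the 111 sites with a D.ana mean of 10% or more. The median absolute difference was 1.85 to 5.2 points between libraries of a line (1.9 to 5.2 without line 721) and 4.15 points between the D.ana sexes. These are single libraries of another species set against averages, so the values stand side by side and give no error for D.ana.

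The same contrast was then read in the other species. Over the sites at 2% or more in at least 1 sex of the species, the median difference of 1.85 points in D.ana (175 sites) stood beside 3.9 for D.mel (548), 3.92 for D.sim (398), 2.55 for D.yak (279), 0.8 for D.pse (123) and 0.05 for D.vir (79). D.ana stood between D.yak and D.pse in this order. Over the same edited sites, males were higher by more than 10 points at 9.71% for D.ana, 23.0% for D.mel, 19.6% for D.sim, 22.6% for D.yak, 11.4% for D.pse and 8.86% for D.vir. Over all sites with both levels, edited or not, males were so at 4.78% of the D.ana sites, against 17.5% for D.mel, 14.0% for D.sim, 15.4% for D.yak, 5.07% for D.pse and 3.32% for D.vir. Females were so at 1.97% of the D.ana sites, against 0.693% for D.mel, 0.717% for D.sim, 1.96% for D.yak, 2.90% for D.pse and 1.90% for D.vir. Over the 6 species taken as units, the mean of these medians was 2.18 ± 1.59 points (SD, n = 6 species), above 0 in 6 of 6 (exact sign-flip test, two-sided p = 0.03125, the smallest that its 64 patterns can give). D.vir, at 0.05 points, was the species that turned, with a median of -0.05 points over all its sites and a mean of -0.68 points over its edited sites. The sign-flip p-value was 0.0625 over the sites shared with D.ana and 0.09375 over all sites with both levels. The test takes the species as independent units, but they share ancestry. D.mel, D.sim and D.yak are also close relatives measured with the same primers, so the p-values carry that limit. D.ana alone against the other 5 species could not reach a p-value under 0.1667, so whether D.ana differs from them was not tested.

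The species differ in which sites were measured, so D.ana was also compared with each of the others at shared sites edited at 2% or more in both. At 119 sites shared with D.mel, the median difference was 2.35 points in D.ana and 3.4 in D.mel, and D.mel had the larger value at 72 sites. Males were higher at 73.9% of them in D.ana and 78.2% in D.mel, at 70 sites in both species. At 116 sites shared with D.sim, the medians were 1.85 points in D.ana and 4.12 in D.sim, with the larger value in D.sim at 83 sites. The 103 sites shared with D.yak had medians of 1.45 and 3.45 points. With D.pse the order turned, at 2.35 points in D.ana and 0.7 in D.pse over 59 sites, and with D.vir the medians were 0.6 and -0.25 points over 41 sites. Across these sites, Spearman's rho between the differences was 0.372 for D.mel, 0.476 for D.sim, 0.317 for D.yak, 0.394 for D.pse and 0.448 for D.vir, given as a description of sites that share libraries and transcripts. The 54 sites measured in both sexes of all species included 28 edited in D.ana, where the D.ana median was 0.65 points, against 1.38 for D.mel, 1.9 for D.sim, 1.52 for D.yak, 0.1 for D.pse and -0.1 for D.vir. These 28 were filtered for editing in D.ana alone. The other medians therefore take in sites unedited in that species, such as 2L position 411895, at most 0.65% in D.pse and D.vir.

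**Figure D4:**
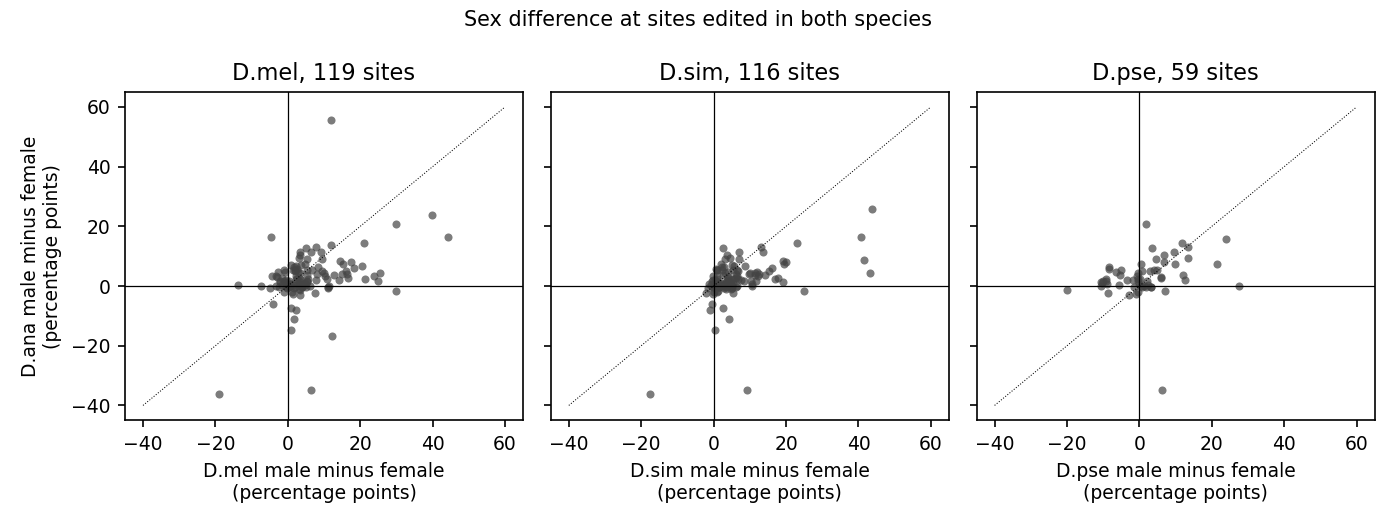
Male minus female level in D.ana (y axis, percentage points) against the same in D.mel, D.sim and D.pse (x axes), at 119, 116 and 59 sites edited at 2% or more in both species of a panel, with a dotted line where the values are equal. Nearly all points past 10 points in D.mel or D.sim lie below the dotted line, and rho over the sites is 0.372, 0.476 and 0.394.

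Sites with a large male excess in D.mel had a smaller one in D.ana. At the 41 shared sites that D.mel males had higher by more than 10 points, the D.mel medians were 27.85% in males and 7.2% in females, and the D.ana medians were 18.65% in males and 9.1% in females. The median of the differences at these sites was 16.25 points in D.mel and 2.5 points in D.ana. The D.ana difference was the smaller at 39 of 41, males were higher in D.ana at 31, and 12 were under 2% in both D.ana sexes. D.ana males were higher by more than 10 points at 6 of the 41, beside 4.78% of all D.ana sites and 9.71% of the edited ones. The female level was higher in D.ana than in D.mel at 24 of these sites, and the male level at 13. Choosing sites for a large value in D.mel favors a smaller value elsewhere, so these counts are a description. Sites chosen in the same way from D.sim gave a D.ana median of 2.5 points over 39 sites, and those from D.yak 1.88 points over 36 sites.

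In the other direction, the 17 male-higher D.ana sites were looked up in the other species. Both sexes of D.mel were measured at 13, of which 12 were higher in D.mel males, 6 of them by more than 10 points. Over the 119 shared sites edited in both species, D.mel males were higher by more than 10 points at 29. In D.sim males were higher at 8 of 9, in D.yak at 5 of 7, in D.pse at 9 of 10 and in D.vir at 2 of 6. For reading these counts, males were higher at 78.2% of all shared sites edited in both species for D.mel, 89.7% for D.sim, 76.7% for D.yak, 55.9% for D.pse and 41.5% for D.vir. The counts for D.sim, D.yak and D.vir were near or below these shares, but this reading is rough. The shares are over sites edited in both species, while the counts also take in sites unedited in the other species. All 6 sites in D.vir were at most 0.7% in either sex, where a direction means little. The 1 D.sim site with females higher, X position 10941783, was at 0.45% in males and 1.15% in females. The D.pse count also held unedited sites. Of the 7 female-higher sites, 5 were measured in both D.mel sexes, and 1 of these was higher in D.mel females. The count was 1 of 4 in D.sim, 2 of 6 in D.yak and 1 of 2 in D.pse. In D.vir, all 3 that were measured were higher in females. Of these, 2R position 3701368 was unedited there, at 0.15% in males and 0.2% in females. Over the sites edited in both species, females were higher at 21.8% for D.mel, 10.3% for D.sim, 22.3% for D.yak, 44.1% for D.pse and 56.1% for D.vir. The counts are small and not limited to such sites, so they show nothing particular to the female-higher sites.

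Single sites show these patterns in their levels. At 2L position 411895, males were at 41.4% in D.ana and at 51.55% in D.mel, 46.6% in D.sim and 57.65% in D.yak. Females were at 24.9% in D.ana and at 7.2%, 5.95% and 6.35% in the same 3 species, so the female level was the one that stood apart in D.ana. In D.pse and D.vir this site was at most 0.65% in either sex.

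At the male-higher 3R locus, both sexes of D.ana had the higher levels at the main sites. Position 16844415 was at 46.4% in D.mel males and 6.7% in D.mel females, and at 35.3% and 7.1% in D.yak, below the D.ana levels of 83.55% and 59.75% in both sexes. Position 16844310 was at 48.85% and 5% in D.sim and at 29.05% and 5.25% in D.yak. Position 16844318 went the other way in males, at 19.2% in D.ana against 45.75% in D.sim and 31.45% in D.yak. Its female level was 10.55% in D.ana, 4.35% in D.sim and 5.65% in D.yak.

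At 3R position 20137053 the D.ana males (28.25%) were close to those of D.mel (24%) and D.sim (25.55%), whereas D.ana females (13.7%) were above the 3.1% and 2.45% of those species. Position 7230012 on 2L was similar in 5 species, with males from 15.5% in D.mel to 24.6% in D.yak and females from 5.7% in D.ana to 10.25% in D.pse. Only D.vir stood apart there, at 0.3% in males and 0.2% in females.

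The main female-higher site had the same direction in every species with both levels. At 3R position 6071147, D.mel was at 50.7% in males and 69.75% in females, D.sim at 61.6% and 79.25%, D.yak at 66.8% and 71.4%, and D.vir at 33.4% and 84.5%. The D.ana levels of 32.9% and 69.05% lay just below the lowest of these levels in each sex. The neighbors were less alike. Position 6071146 was at 17.45% in males and 15.25% in females of D.mel, and at 5.75% and 14.25% in D.vir. Position 6071158 was at most 6.1% in either sex of those species, so the level of 19.85% in D.ana females had no counterpart there.

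At X position 6002745, by contrast, D.ana was the one species with females higher among those with both levels. Males and females were at 77.3% and 70.85% in D.mel, 83.5% and 74.4% in D.sim, 83.4% and 63.45% in D.yak, and 79.1% and 72.85% in D.pse. The D.ana females (81.05%) were above the female levels of those species, and the D.ana males (46.25%) were below all of their male levels.

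**Figure D5:**
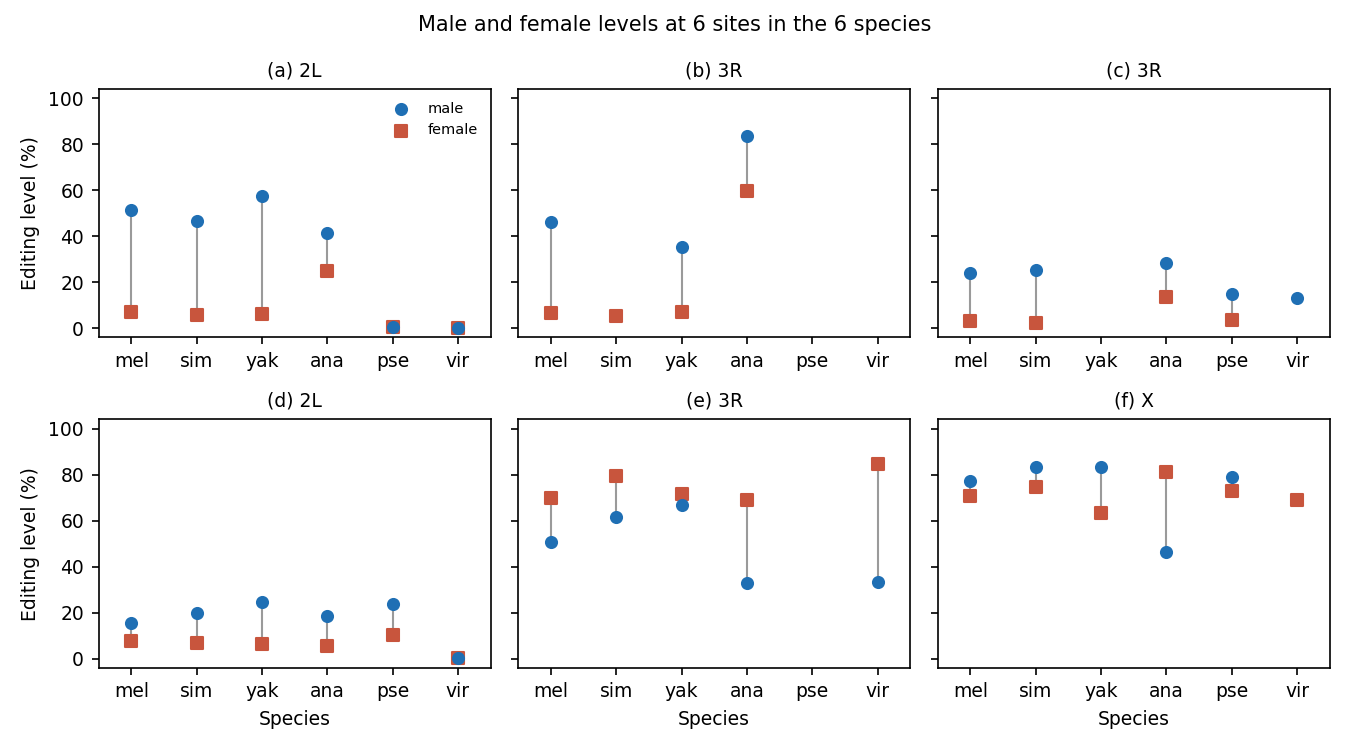
Male (blue circles) and female (red squares) editing levels (y axis, %) in the 6 species (x axis) at 2L 411895 (a), 3R 16844415 (b), 3R 20137053 (c), 2L 7230012 (d), 3R 6071147 (e) and X 6002745 (f), with a missing mark where no level was listed. In panels a to c the D.ana female lies above those of the other species, in panel e females are higher in each species with both levels, and in panel f D.ana is the one species with both levels that has the female above the male.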

How the data were processed

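Editing levels were deposited by the authors as a fraction of reads with G, with a table for each sex that has a column per species, and a table of the D.mel lines that has a column per library. By the study's methods, reads were split by barcode with FASTX Toolkit, mapped by TopHat to the matching species, and sites with at least 50 reads were kept. Nothing was normalized between samples. The sources used here do not state how replicates of both rounds were combined. All columns could be assigned, and 0 were left out.

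Levels were converted to percent and the tables joined on the site. A difference of more than 10 points was counted, an edited site had 2% or more in at least 1 sex, and an unedited site at most 1.5%. Clusters used positions alone, since the tables give no strand. In the table of the lines, positions with NA in place of the digits 200 were restored. Named sites were the 12 with the largest male and the 12 with the largest female excess, the members of the largest clusters, and the 5 with the highest mean under 99%. Other sites with values in the text (neighbors, 1-sex sites and the short clusters) were chosen after their values were seen. The members, limits and comparisons were chosen with earlier results of these data known.

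The 6 species medians were tested against 0 with exact sign flips at a threshold of 0.05. Alternatives changed the limits, the bands, the cluster distance and the set of sites. The steps were tested on simulated data. Python 3.11.15 was used with numpy 2.4.6, pandas 2.3.3 and matplotlib 3.10.9.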

Additional observations from a re-analysis of the deposited data

Results flagged for a closer look

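At 2 sites, D.ana and another species differed by more than 10 points between the sexes in opposite directions. At 2R position 3701368, the difference was -16.6 points in D.ana (25.15% in males, 41.75% in females) and 12.15 points in D.mel (16.9% and 4.75%). At X position 6002745, it was -34.8 points in D.ana and 19.95 points in D.yak (83.4% in males, 63.45% in females). With 1 averaged value per sex and species, neither contrast was tested.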

How the results depend on the processing

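The direction with males higher was kept by the D.ana median and by the mean over species under all alternatives run. With a limit of 5 points males were higher at 48 sites, and with 20 points at 5, where females were higher at 3. The D.ana median was 0.15 points over all sites, 3.25 points over sites at 10% or more, and the mean over edited sites was 2.78 points. Banded by the mean D.mel level, the medians were 0.1 points from 2 to 10%, 0.35 points from 10 to 30% and 0.15 points from 60%. These bands also hold sites unedited in D.ana. Banded by the female level, the median from 10 to 30% was 2.55 points, and by the male level that from 60% was 3.25 points. Over species, the mean was 0.81 points with all sites (exact sign-flip p = 0.09375), 2.01 points at sites shared with D.ana (p = 0.0625) and 3.51 points from means over sites (p = 0.0625), none below 0.05. The cause was not tested. Apart from the sign-flip test, which pairs the sexes of a species, replicates were not paired. No paired analysis was possible because, for replicates, the tables hold 1 averaged value per species and sex, and for the same reason leaving out single replicates was not run.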
